A study of Mus musculus with 6 samples.

Results

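The genes described are those of the cardiac thick filament: the myosin heavy chains Myh6, Myh7 and Myh7b, the regulatory light chains Myl2 and Myl7, the essential light chains Myl3 and Myl4, the myosin-binding protein Mybpc3 and the giant sarcomere protein titin, Ttn. They were chosen by gene name in the deposited expression table, which gave 8 of the 9 genes among 28660 loci. Ttn is not analysed here. The samples were nuclei of HL-1 cells, an immortalised mouse cardiomyocyte line that descends from an atrial tumour and continues to beat in culture, grown with norepinephrine in the medium. Both groups come from this line with no further treatment: the chromatin pellet extract (3 libraries), which keeps RNA bound to chromatin, and the soluble nuclear extract (3 libraries), which holds RNA released from it. Synthetic ERCC spike-in RNAs were added to each fraction, ribosomal RNA was removed, and strand-specific libraries were sequenced. The authors give 1 value per gene and fraction in FPKM, a fragment count scaled to the length of the transcript and the size of the library. The 3 replicates are thus merged, no value has a replicate error, and library depth is unknown.

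The thick filament is built from myosin hexamers, in which a pair of heavy chains carries the motor heads and each head binds an essential and a regulatory light chain. Myosin-binding protein C decorates the filament and tunes how the heads engage actin, and titin runs from Z-disc to M-band as a molecular spring and ruler. In the mouse heart the alpha heavy chain of Myh6 is the adult form and the beta heavy chain of Myh7 the fetal ventricular one. Myl7 and Myl4 encode the atrial light chains, and Myl2 and Myl3 the ventricular ones.

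Each of the 3 heavy chain genes is known as the host of a microRNA with a related seed, the stretch that pairs with target messages. The mature sequences are shown because they tie these otherwise separate genes together. They are given 5′ to 3′ from RefSeq on GRCm38.p6, with the seed (bases 2 to 8) in capitals, and each lies inside the RefSeq span of its host.
miR-208a-3p, in Myh6: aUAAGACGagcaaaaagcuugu
miR-208b-3p, in Myh7: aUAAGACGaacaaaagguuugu
miR-499-5p, in Myh7b: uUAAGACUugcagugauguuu
The 2 forms of miR-208 share the seed UAAGACG and are identical at 19 of 22 positions, while miR-499-5p has UAAGACU. The microRNAs themselves are not analysed here, so only the RNA of the host genes is described.

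The atrial members were abundant in the nucleus, and the ventricular ones had under 1 FPKM in both fractions. Myl7 had 1119 FPKM in the soluble fraction and 131.3 FPKM in the pellet. Among 17913 protein-coding genes it ranked 10th in soluble FPKM and 20th in pellet FPKM. Myl4 had 367.2 FPKM in the soluble fraction and 61.0 FPKM in the pellet, ranks 119 and 151. Both atrial light chains thus stood among the most abundant messages of either fraction, and each was lower in pellet FPKM than in soluble FPKM.

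Myh6, the motor of the adult mouse myocardium, had 124.4 FPKM in the soluble fraction and 87.3 FPKM in the pellet. Among protein-coding genes it ranked 545th in soluble FPKM and 58th in pellet FPKM. Mybpc3 had 42.4 FPKM in the soluble fraction and 12.4 FPKM in the pellet, ranks 2001 and 2280. Of these 4 genes, Myh6 had the soluble and pellet FPKM values closest to each other as a ratio, 1.42-fold apart, against 3.43-fold for Mybpc3.

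The other 4 genes lay between 0.0228 and 0.543 FPKM. Myl2, the ventricular regulatory light chain, had 0.543 FPKM in the soluble fraction and 0.450 FPKM in the pellet. Myl3, the ventricular essential light chain, had 0.243 and 0.113 FPKM. Myh7, the beta heavy chain, had 0.159 and 0.0991 FPKM, and Myh7b, an ancient heavy chain also found in slow muscle, had 0.1002 and 0.0228 FPKM. In FPKM as deposited, all 8 genes were lower in the pellet than in the soluble fraction. That direction was general: of the 13917 loci kept by the level filter given below, 61.2% were lower in the pellet by 2-fold or more. The median log2 of pellet over soluble FPKM for those loci was -1.34, so direction alone does not set the 8 genes apart. Because both fractions are bulk extracts, the number of cells with a message and the amount per cell cannot be told apart.

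**Figure D1:**
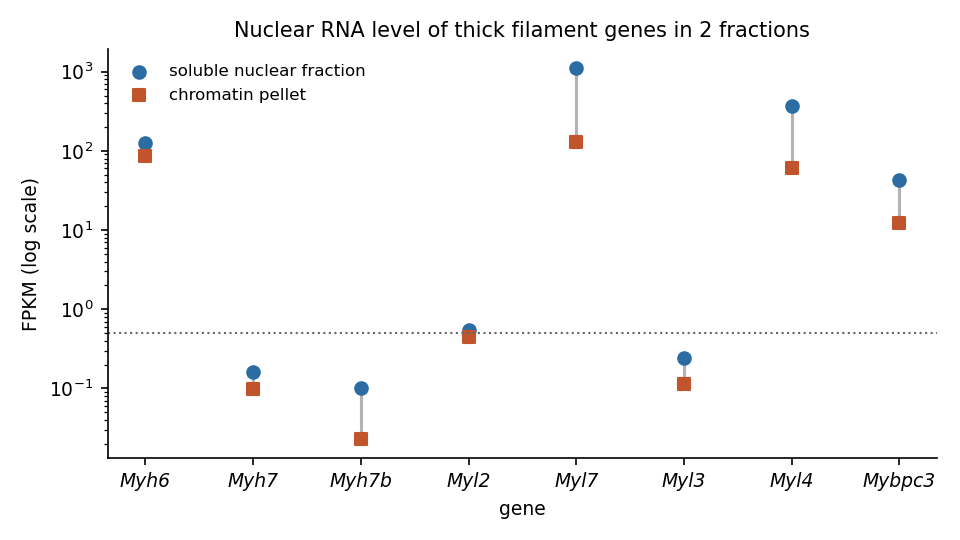
FPKM (log axis) of the 8 thick filament genes in the soluble nuclear fraction (circles) and the chromatin pellet (squares), each point being the authors' pooled value of 3 libraries, with no error available. Myl7, Myl4, Myh6 and Mybpc3 lie far above the dotted line at 0.5 FPKM, and the other 4 genes lie close to it or below it.

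Each atrial light chain exceeded its ventricular counterpart in both fractions, and the adult heavy chain Myh6 exceeded the fetal ventricular form Myh7. Since FPKM is scaled to transcript length, levels of different genes can be set side by side within a fraction. Myl7 was 2061 times as abundant as Myl2 among soluble RNA and 292 times in the pellet. The essential light chain Myl4 exceeded Myl3 by 1512 times in soluble FPKM and by 542 times in pellet FPKM. Myh6 exceeded Myh7 by 781 times in soluble FPKM and by 881 times in pellet FPKM. The coding sequences of Myh6 and Myh7 are close to each other, so the low Myh7 value can hold misassigned Myh6 fragments and is uncertain. The order of the 4 abundant genes differed between fractions: Myl7, Myl4, Myh6, Mybpc3 in the soluble fraction and Myl7, Myh6, Myl4, Mybpc3 in the pellet. The order of the remaining genes was Myl2, Myl3, Myh7, Myh7b in both. With no replicate values, no neighbouring pair in these orders could be set against a spread.

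The distribution between the fractions was taken as the log2 of pellet FPKM over soluble FPKM after multiplying the pellet by 3.37, the factor that aligns the spike-ins, and is called the spike-in scale. Without this factor, on the FPKM scale, each log2 value is lower by 1.75. A value above 0 means more RNA in the pellet per spike-in, and its reading as an amount assumes equal spike-in additions. Genes with a mean of at least 0.5 FPKM were tested, which means that their fold was compared with a threshold of 2-fold, since no test across replicates was possible. Of the 8 genes, 4 passed this level: Myh6, Myl7, Myl4 and Mybpc3. Myl2 missed it by little, with a mean of 0.496 FPKM. At that level the scatter of the spike-ins about their common factor, the only error available, had an SD of 0.12 log2 units (n = 47 spike-ins) and covers technical error only.

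The tested thick filament genes were spread over both sides of balance on the spike-in scale. Of the 4, Myh6 alone exceeded 2-fold towards the pellet (1 gene), which 31.9% of all 13917 tested loci did, and Myl7 alone exceeded it towards the soluble side (1 gene), which 10.5% did. Among tested protein-coding genes the shares were 24.0% and 10.6%. Their 4 log2 folds had a median of -0.43, beside 0.41 over all tested loci and 0.26 over tested protein-coding genes. On the FPKM scale 0 of the 4 were higher and 3 were lower. There 9.66% of all tested loci were higher and 61.2% lower, or 2.25% and 68.2% of protein-coding genes. With 4 genes, these counts describe the genes and no more.

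Myh6 lay towards the pellet on the spike-in scale, with a 2.37-fold higher value and a log2 fold of 1.24, which turns to -0.51 on the FPKM scale. Its rescaled pellet value made up 70.3% of the sum of both fractions. Of tested protein-coding genes, 82.5% had a lower fold. Mybpc3 was balanced, with a log2 fold of -0.02 (-1.78 on the FPKM scale) and 49.6% of its signal in the pellet. Its departure from 0 was smaller than the spike-in SD.

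Both atrial light chains were on the soluble side, whichever scale was used. Myl7 was 2.53-fold lower in the pellet, a log2 fold of -1.34 (-3.09 on the FPKM scale), with 28.4% of its signal in the pellet. Only 5.51% of tested protein-coding genes had a lower fold. Myl4 had a log2 fold of -0.84 (-2.59 on the FPKM scale) and 35.9% of its signal in the pellet, which is within 2-fold on the spike-in scale and past it on the FPKM scale. All tested spike-ins lay between -0.28 and 0.23, so the folds of Myh6, Myl4 and Myl7 were outside the range of the spike-ins and that of Mybpc3 was inside it.

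Among the 4 genes of low level, folds are less certain, because spike-ins with a mean of 0.05 to 0.5 FPKM had an SD of 0.37 (n = 16) and reached -0.84. Myl2 had a log2 fold of 1.48 on the spike-in scale, turning to -0.27 on the FPKM scale. Myh7 had 1.07, or -0.68 on the FPKM scale, and Myl3 had 0.64, or -1.11. Myh7b was the one gene of low level below 0 on the spike-in scale, at -0.38, or -2.14 on the FPKM scale. Both ventricular light chains thus had higher folds than both atrial light chains, but at levels where the spike-in SD was 0.37 and not 0.12.

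**Figure D2:**
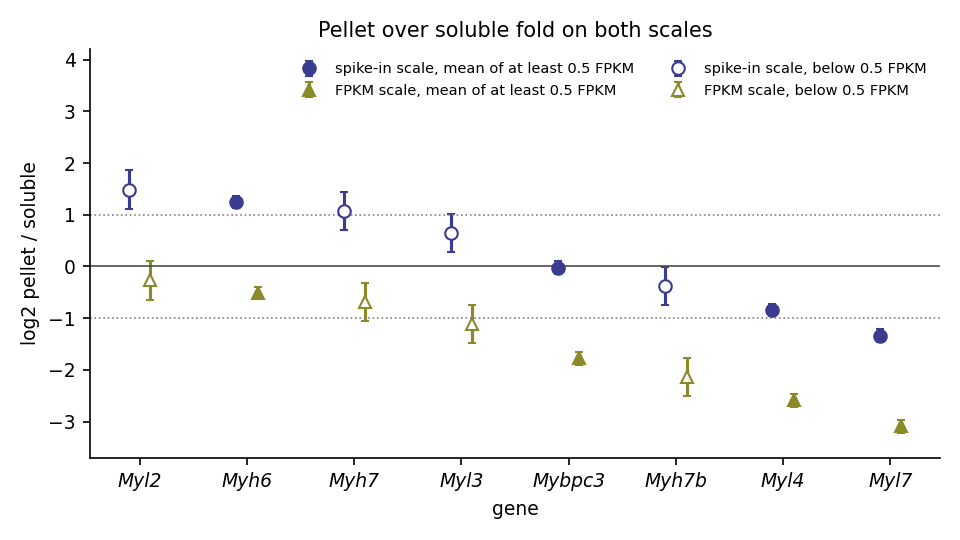
Log2 pellet over soluble for the 8 genes on the spike-in scale (circles) and the FPKM scale (triangles), in descending order. Filled symbols have a mean of at least 0.5 FPKM, bars show 1 SD of the spike-ins of that level (0.12 or 0.37), and dotted lines mark 2-fold. The scales differ by a constant, so the order of the genes is the same on both, while Myl2, Myh6, Myh7 and Myl3 change sign between them.

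Differences between members do not depend on the spike-in factor, since it cancels. The 4 tested genes form 6 pairs, and the widest difference was between Myh6 and Myl7, 2.58 log2 units or 5.98-fold. The same contrast within fractions is that Myl7 was 8.99 times as abundant as Myh6 in the soluble fraction but 1.504 times in the pellet. Myh6 and Myl4 differed by 2.08 log2 units. Myl4 exceeded Myh6 by 2.95 times in the soluble fraction, whereas Myh6 exceeded Myl4 by 1.43 times in the pellet. The heavy chain message therefore passed the essential light chain message in the pellet.

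The remaining pairs were closer. Myh6 differed from Mybpc3 by 1.27 log2 units, and Mybpc3 from Myl7 by 1.31. Mybpc3 and Myl4 were 0.81 apart. The atrial light chains were the closest pair, with 0.50 log2 units between Myl4 and Myl7. A difference between genes of this level carries an SD of 0.17 from the spike-in scatter, and all 6 differences exceeded it by more than 2 times. Variation between cultures is not included in that SD.

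Gene span moves with the fold over the tested protein-coding genes that have a RefSeq span, so the members were placed beside genes of like span. RefSeq gives a span for 10726 of the tested protein-coding genes (94.1%). Their median log2 fold on the spike-in scale was -0.68 under 5 kb (1161 genes), -0.07 from 5 to 20 kb (3512 genes), 0.33 from 20 to 50 kb (3018 genes), 0.65 from 50 to 100 kb (1612 genes) and 0.96 over 100 kb (1423 genes). Myl7, the smallest member with 2146 bp, differed from the median of its class by -0.65, and there 23.5% of genes had a lower fold. Mybpc3, with 18403 bp, was 0.05 above the median of its class.

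The 2 members of 20 to 50 kb went opposite ways. Myh6, with 26097 bp, lay 0.92 above the class median, and 83.3% of the class had a lower fold. Myl4, with 41199 bp in RefSeq, differed from the class median by -1.16, and 7.26% of the class had a lower fold. Whether span accounts for any part of the members' folds was not tested.

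**Figure D3:**
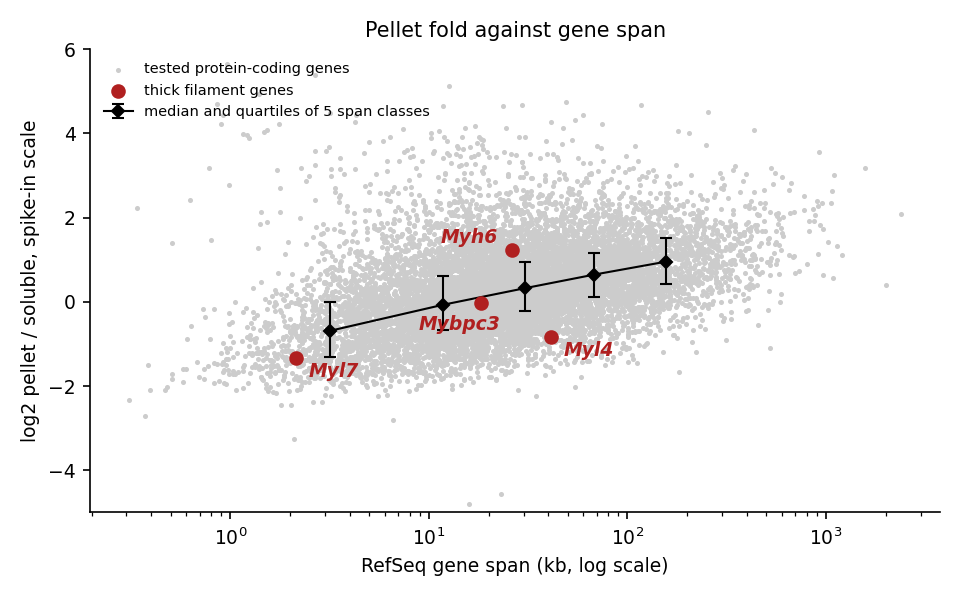
Log2 pellet over soluble on the spike-in scale against RefSeq gene span (log axis) for tested protein-coding genes (grey), with the median and quartiles of 5 span classes (black) and the 4 tested thick filament genes (red). The class medians run from -0.68 to 0.96, and 5 genes above 6 are outside the axis. Myh6 lies above the class median at its span, Myl4 and Myl7 lie below theirs, and Mybpc3 lies close to it.

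The 8 genes lie on 5 chromosomes, given here in the mm10 coordinates of the table. Myh6 (ENSMUSG00000040752.11, chromosome 14, 54940355 to 54966927) and Myh7 (ENSMUSG00000053093.11, chromosome 14, 54968678 to 54994634) are direct neighbours. Myl7 (ENSMUSG00000020469.8, 5896637 to 5898782) and Myl4 (ENSMUSG00000061086.8, 104550663 to 104595753) are on chromosome 11. Mybpc3 (ENSMUSG00000002100.11, 91118144 to 91136516) and Myh7b (ENSMUSG00000074652.3, 155611212 to 155692384) are on chromosome 2. Myl2 (ENSMUSG00000013936.8) is on chromosome 5, from 122100951 to 122138957, and Myl3 (ENSMUSG00000059741.9) is on chromosome 9, from 110763646 to 110769804. A span in the table covers all genes assembled together, so 5 of the 8 share it with at least 1 further locus, and the sources used here do not say how fragments were divided among these. Myl7, Myl3 and Mybpc3 share theirs with none.

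Antisense RNA outweighed the message at Myh7. Mhrt, the long noncoding RNA transcribed antisense to Myh7 and also called Myheart, had 1.17 FPKM in the soluble fraction and 1.51 FPKM in the pellet. That is 7.33 times the soluble value of Myh7 and 15.2 times its pellet value. Its log2 fold was 2.12 on the spike-in scale and stayed above 0, at 0.37, on the FPKM scale. A further antisense locus there, RP23-93K3.8, had 0.0292 FPKM in the soluble fraction and 0.174 FPKM in the pellet, below the tested level. The libraries keep strand, per the labels, but whether the counting used it is not given, so sense and antisense reads at Myh7 may not be fully apart.

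At Myh6 the balance was the reverse. The antisense locus RP23-93K3.7 had 0.0160 FPKM in the soluble fraction and 0.0635 FPKM in the pellet, and Myh6 exceeded it by 7769 and 1375 times. At Myl4, the antisense locus Gm11665 had 11.6 FPKM in the soluble fraction and 1.28 FPKM in the pellet. Like Myl4 it was on the soluble side, with a log2 fold of -1.42 on the spike-in scale and -3.18 on the FPKM scale. Myl4 itself exceeded it by 31.7 times in soluble FPKM and 47.7 times in pellet FPKM. As at Myh7, sense and antisense reads at Myh6 and Myl4 may not be fully apart.

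Myh7b shares its place with a much more abundant gene. Trpc4ap, an adaptor of a ubiquitin ligase, had 37.9 FPKM in the soluble fraction and 10.7 FPKM in the pellet, which is 378 times and 471 times the Myh7b values. The small nucleolar RNA Gm22334 in the same span had 1.11 FPKM in the soluble fraction and 3.54 FPKM in the pellet, and its log2 fold was 3.43 (1.68 on the FPKM scale). The low values of Myh7b can depend on how fragments were assigned between these loci. Ccdc63, which shares the span of Myl2, was lower than Myl2 at 0.192 and 0.0848 FPKM.

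Promoter sequence was read for the 8 genes to see which letters lie upstream of the atrial and ventricular members. The motifs searched were the CArG box bound by serum response factor and the MEF2 site, both of 10 letters, AGATAA and TGATAA as GATA sites, and AGGTGT as a T-box core, on both strands, and TATAAA on the strand of the gene. The window was the 250 bases before the RefSeq start site, which for Myh6, Myl4 and Mybpc3 lies inside the gene's RefSeq span. The whole windows of Myh6 and Myl4 lie inside that span, so they hold no bases upstream of it. For Myl2 the start site, 122092724, lies upstream of the start of its locus given above, 122100951. Myl2 and Myh7 each have 2 promoters listed, and the window is that of the start site used here. A CArG box lay in 2 of the 8, Myl7 and Myl3, against 1.47% of all 32851 promoters. The MEF2 site lay in 1, Mybpc3, against 0.508%. TGATAA lay in Myl7 and Mybpc3 (7.94% of all promoters) and AGATAA in Myh7b and Myl2 (9.99%). The T-box core (11.8% of all) and TATAAA (7.59% of all) were found in 0 of the 8, and no motif overlapped another. These are matches of letters only.

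The 3 promoters with a 10-letter match are shown 5′ to 3′ on the strand of the gene, from RefSeq on GRCm38.p6, with every match in capitals and without bases that RefSeq or the table counts as part of the gene. Myl7 is from chr11:5898783-5899032 (minus strand), Myl3 from chr9:110763428-110763645 (plus strand) and Mybpc3 from chr2:91117894-91118113 (plus strand).
Myl7: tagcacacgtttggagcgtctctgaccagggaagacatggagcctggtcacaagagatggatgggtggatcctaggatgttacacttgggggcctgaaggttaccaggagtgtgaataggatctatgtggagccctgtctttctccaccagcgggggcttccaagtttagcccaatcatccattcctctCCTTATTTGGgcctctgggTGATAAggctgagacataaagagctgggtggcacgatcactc
Myl3: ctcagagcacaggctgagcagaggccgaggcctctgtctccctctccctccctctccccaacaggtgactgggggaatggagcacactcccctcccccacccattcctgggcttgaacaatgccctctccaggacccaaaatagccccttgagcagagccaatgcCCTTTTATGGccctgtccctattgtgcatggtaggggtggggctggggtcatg
Mybpc3: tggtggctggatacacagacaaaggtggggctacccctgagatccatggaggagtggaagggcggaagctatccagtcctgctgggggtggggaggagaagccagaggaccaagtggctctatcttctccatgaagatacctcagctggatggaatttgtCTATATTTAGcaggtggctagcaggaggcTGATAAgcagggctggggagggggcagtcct
In Myl7 the capitals mark CCTTATTTGG, the CArG box that begins 61 bases before the start site, and TGATAA 42 bases before it. In Myl3 they mark the CArG box CCTTTTATGG, 85 bases before the start site. In Mybpc3 they mark the MEF2 site CTATATTTAG, 90 bases before the start site, and TGATAA 61 bases before it. The atrial Myl7 and the ventricular Myl3 both hold a CArG box in this window. Whether any of these matches relates to the level of its gene was not tested.

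Of the genes that assemble, phosphorylate or anchor the thick filament, 19 were tested. On the spike-in scale 4 exceeded 2-fold towards the pellet and 0 towards the soluble side, beside the 24.0% and 10.6% of all tested protein-coding genes. Their median was 0.01. The FPKM scale gave -1.74 for it, and put 0 genes above 2-fold and 15 below, beside 2.25% and 68.2% of protein-coding genes. Trim55, a ubiquitin ligase that binds titin near the M-band, had 32.4 FPKM in the soluble fraction and 42.0 FPKM in the pellet, a log2 fold of 2.13. On the FPKM scale its fold was 0.37, still above 0. Smyd1 and Unc45b, which help to fold and assemble myosin, were within 2-fold at 0.02 and -0.26, and Mylk3, the cardiac kinase of the regulatory light chain, was within it at 0.23. These 3 were named after their values were seen.

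The medians of heavy and light chain genes outside the cardiac set lay on different sides of 0 on the spike-in scale. Single genes went against their list: the heavy chain gene Myh13 had -0.06 and the light chain gene Myl1 had 0.31. For the counts that follow, 24.0% of all tested protein-coding genes exceeded 2-fold towards the pellet and 10.6% towards the soluble side. On the FPKM scale these shares were 2.25% and 68.2%. Among 6 other class II heavy chain genes, 2 exceeded 2-fold towards the pellet and 0 the other way, and the median was 0.75. The FPKM scale gave -1.004, a change of sign, and put 0 genes above 2-fold and 3 below. Myh10, a nonmuscle heavy chain, had 1.65 and Myh14, also nonmuscle, had 1.22, and both fall below 0 on the FPKM scale at -0.10 and -0.54. Among 5 other light chain genes, 2 exceeded 2-fold towards the soluble side and 0 the other way. The median was -0.94, or -2.70 on the FPKM scale, with 5 lower. Myl9, a smooth muscle regulatory light chain, had -1.22 at 817.5 soluble FPKM, and Myl6, the nonmuscle and smooth muscle essential light chain, had -1.12 at 195.8 soluble FPKM. The 18 thin filament genes had 3 past 2-fold towards the pellet and 4 towards the soluble side. Their median was -0.33, and the FPKM scale gave -2.08, with 0 genes above 2-fold and 15 below. The largest of their folds each way were those of Nebl (1.23) and Neb (1.15), which turn to -0.52 and -0.60 on the FPKM scale, and of Tnnc2 (-1.54) and Tnni1 (-1.25). The tested genes of the heavy chain list have RefSeq spans of 31511 to 124712 bp, and those of the light chain list 3028 to 23638 bp. Whether span accounts for any part of the difference between their medians was not tested. Differences between these lists and the thick filament genes were not tested.

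**Figure D4:**
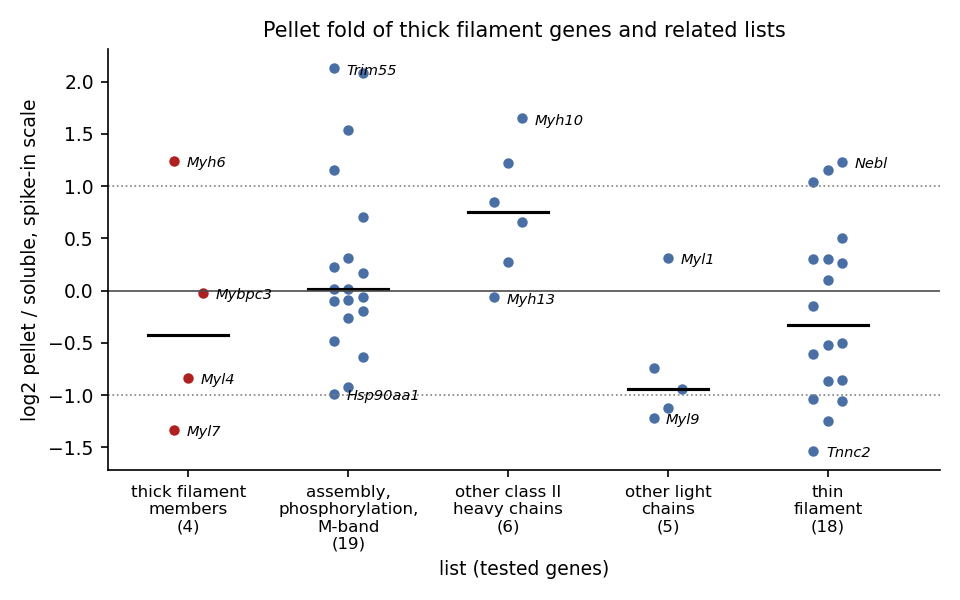
Log2 pellet over soluble on the spike-in scale for the 4 tested thick filament genes (red) and for the tested genes of 4 related lists (blue), with each list's median as a black line and dotted lines at 2-fold. The 5 other light chain genes have a median of -0.94 and the 6 other heavy chain genes a median of 0.75, and the thin filament genes fall on both sides of 0.

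For each tested member, the protein-coding gene nearest in its 2 values was found by the distance in log2 soluble and log2 pellet FPKM. Nebl, encoding the thin filament protein nebulette, was nearest to Myh6, with 125.2 and 87.4 FPKM and a distance of 0.01. Nearest to Myl7 was the histone variant gene H2afz, with 1036 and 120.3 FPKM (distance 0.17). Tagln, a smooth muscle actin-binding protein gene, was nearest to Myl4 (0.13), and Ubtf, a factor of ribosomal RNA transcription, was nearest to Mybpc3 (0.01). Many genes lie close in a comparison of 2 values: within a distance of 1 there were 92 for Myh6, 33 for Myl7, 161 for Myl4 and 1825 for Mybpc3.

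The label of an atrial cardiomyocyte line was checked against markers. The 5 cardiomyocyte markers analysed were all tested, with Tnnt2 highest at 1022 soluble FPKM and Actn2 lowest at 4.67. The 6 atrial markers analysed, Myl7 and Myl4 among them, were all tested, but Nppa, encoding atrial natriuretic peptide, had 1.63 soluble FPKM only. Of the 4 ventricular markers analysed 0 reached the tested level, with 0.159 to 0.543 soluble FPKM. The members Myl2, Myl3 and Myh7 are 3 of these, and the other is Hey2, a ventricular transcription factor, at 0.233 soluble FPKM. Smooth muscle markers were all 5 tested and reached 1539 soluble FPKM for Acta2, which early cardiomyocytes also make. Tagln had 381.1 soluble FPKM, Smtn 18.4, Cnn1 1.43, and Myh11, the smooth muscle heavy chain, 0.867. Of 4 fibroblast markers analysed 3 were tested, Col3a1 at 340.5 soluble FPKM, Pdgfra at 3.59 and Dcn at 1.74. Col1a2, at 0.707 soluble FPKM, was below the tested level. Of 6 skeletal muscle markers analysed 2 were tested, Mylpf at 9.25 and Tnnt3 at 2.79 soluble FPKM. Endothelial markers were at most 5.52 soluble FPKM and immune markers at most 0.711. The part of other cell types in the members' levels was not tested.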

How the data were processed

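RNA of the chromatin pellet and of the soluble nuclear extract of HL-1 cells was compared over 6 libraries, 3 per fraction, described as biological replicates. Per the submitters' processing notes, the tools were HISAT2, SAMtools, Cufflinks, bedtools and Cuffdiff on mm10, with versions and settings not given in the sources used here. Per the file headers, the authors give 1 FPKM value per locus and fraction. They also deposited a rescaled pellet signal, its sum with soluble FPKM, the ratio of both, and the log10 of that sum and ratio. Counts are absent, so no interval based on depth is given.

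Of 30687 lines, 1945 repeated an identifier and were dropped, leaving 28660 loci and 82 spike-ins. The spike-in factor, 3.37, was fitted to all spike-ins by least squares without an intercept, with soluble FPKM as the response. It gives the deposited rescaled pellet value of every tested locus within 4.7e-07 percent. Table starts count from 0 and 1 was added. Python 3.11.15, numpy 2.4.6 and pandas 2.3.3 were used, and the fold calls were tested on simulated data. No test across replicates was possible, as planned for pooled values. The members and lists were chosen with earlier results of these data known. Named genes are all members, loci inside a member's span, the nearest gene in both values, and the 2 largest folds each way past 2-fold in each list. One gene that this rule names is not reported here. Alternatives were the FPKM scale, a median spike-in factor, a pseudocount of 0.1 FPKM, no level filter, a filter at 5 FPKM and a threshold of 3-fold.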

Additional observations from a re-analysis of the deposited data

How the results depend on the processing

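Scaling decided the calls. Without the spike-in factor, the counts past 2-fold among tested members were 0 higher and 3 lower, in place of 1 and 1, and the median log2 fold fell from -0.43 to -2.18. Under that setting Myh6 turned to -0.51, Myh7 to -0.68, Myl2 to -0.27 and Myl3 to -1.11. This follows from the constant shift of 1.75. Without a level filter, 3 of 8 members were higher, Myl2 and Myh7 being added to Myh6, and the median over all 8 was 0.31. At a threshold of 3-fold, 0 were higher and 0 were lower. With a median spike-in factor, a pseudocount of 0.1 FPKM or a filter at 5 FPKM, the counts of 1 higher and 1 lower were the same. These settings could hardly change them. The lowest mean of a tested member was 27.4 FPKM, and the median factor has a log2 of 1.81 in place of 1.75. The pseudocount moved Myh7b from -0.38 to 1.05 and Myl3 from 0.64 to 1.06, since both lie near 0.1 FPKM. No paired analysis was possible because the table pools the replicates of each fraction, and for the same reason no replicate could be left out.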

Other observations

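Messages of some skeletal and fetal muscle isoforms were present beside the cardiac set, while others were near 0. These genes were chosen after their values were seen. Myl1, the essential light chain of fast skeletal muscle, had 143.0 FPKM in the soluble fraction and 52.7 FPKM in the pellet. Tnnc2, the fast skeletal troponin C, had 163.0 and 16.7 FPKM, above the cardiac troponin C gene Tnnc1 at 63.3 and 9.01 FPKM. Tnni1, the slow skeletal and fetal cardiac troponin I, had 210.2 and 26.2 FPKM, below the adult cardiac Tnni3 at 680.4 and 98.4 FPKM. Among skeletal heavy chains, the perinatal Myh8 had 7.43 and 2.66 FPKM, and Myh13, the chain of extraocular muscle, had 1.86 and 0.528 FPKM. The embryonic chain Myh3 had 0.0824 and 0.0299 FPKM, below the tested level. The adult fast chain Myh4 had 0.0840 and 0.0389 FPKM, and Myh1 and Myh2 were below 0.01 FPKM in both fractions. Mylpf, the fast skeletal regulatory light chain, had 9.25 and 1.43 FPKM.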
